A study of Drosophila melanogaster with 5 samples.

Results

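Stalker elements are long terminal repeat (LTR) retrotransposons of Drosophila melanogaster, in the gypsy superfamily and close to the element mdg1. An intact element has an LTR at each end and internal coding sequence between them, is transcribed from its 5′ LTR and moves through an RNA copy that is reverse transcribed. In the fly ovary such elements are held down by PIWI-interacting RNAs (piRNAs), small RNAs that guide PIWI proteins to transposon transcripts. Most annotated copies of such families are pieces left from old insertions, so that a read at a copy need not come from a promoter of the element itself.

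The annotated transposable element (TE) copies whose family name begins with Stalker were taken as members, and there were 1159 of them among 20953 TE copies in all. Stalker2 had 695 copies, Stalker 235, Stalker4 226 and Stalker3T 3. Of these, 2 copies lay inside a stretch of unplaced sequence, arm_U from 5288185 to 5303794, whose limits were known from earlier results of these data to hold most TE counts of 1 library, and 1157 lay outside it. Both sets are described apart throughout. Positions are those of the files, whose genome build is not given in the sources used here, so the genes around a copy are not given.

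The series measured polyadenylated RNA in 5 libraries, each of them a group of its own, to follow transcription from TEs. Line iso1a gave 20 ovaries, of whose RNA 5 µg went into 2 stranded CAGE libraries, which read the 5′ ends of capped transcripts; the pyrosequenced one carries the label normalization yes and the one read on Solexa carries normalization no. The other 3 libraries were random-primed, unstranded and read on Illumina, each from full bodies of males (10 adults, below 24 h) and females (10 adults, aged 0–3 days): lines Rev and IR6, labelled normalization no, and line iso1a, labelled normalization yes. What that label means is not given, so that in whole bodies the line iso1a and the label cannot be told apart; no treatment is stated for any group, and a body library mixes both sexes and all tissues. Since every group had 1 library, no difference had a replicate check, no test was run, and the intervals given are exact 95% intervals that cover counting error only.

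Counts on genes, to whose sum all values are scaled, ranged from 109980 in the pyrosequenced library to 11685814 in Rev, with 2813522 in Solexa, 9633168 in IR6 and 4379746 in the iso1a body. A level is given as counts per 1000000 gene counts (CPM), and 3 counts, the limit that a count of 0 allows, correspond to 27.3, 1.07, 0.257, 0.311 and 0.685 CPM in the pyrosequenced, Solexa, Rev, IR6 and iso1a body libraries, the order used below. Ovary markers (chorion, vitelline membrane and germline genes) had counts for 11 of 12 in both ovary libraries, where nos was at 0, and summed to 116348 and 87232 CPM there. In Rev and IR6 the same 12 genes summed to 21275 and 20769 CPM, but in the iso1a body to 1445 CPM. The 12 whole-body markers (testis, accessory gland, muscle, eye, yolk and fat body) had counts for all 12 in each body library and for 4 in each ovary library; they summed to 67181 and 68270 CPM in Rev and IR6 and to 4493 CPM in the iso1a body. In the pyrosequenced and Solexa ovary libraries the whole-body markers summed to 11147.5 and 7325 CPM, above the iso1a body. Of this, the yolk gene Yp2 gave 10129 and 4984 CPM. By the number of genes with counts, the ovary and body libraries thus carried markers of their labelled tissue. By sum, the whole-body markers do not set the iso1a body apart from the ovary libraries. The low sums of the iso1a body rested on some genes of each list: 9 of 12 ovary markers and 8 of 12 whole-body markers were below both other bodies in CPM, but nos, osk, Mhc, ninaE and Lsp2 were above both. Without the yolk genes Yp1, Yp2 and Yp3 the whole-body markers summed to 5001 and 6296 CPM in Rev and IR6 and to 3839 CPM in the iso1a body.

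Few copies were anything like a whole element. Taking the largest position on the element reached by any copy as its length, Stalker measured 7256 bases, Stalker2 7672, Stalker4 7359 and Stalker3T 372. The median copy was 526 bp for Stalker, 289 bp for Stalker2, 352 bp for Stalker3T and 457.5 bp for Stalker4. Copies spanning at least 50% of the element numbered 29, 10, 2 and 26 in the families Stalker, Stalker2, Stalker3T and Stalker4, or 67 in all, and they made up 323 kb of the 818 kb annotated outside the stretch. Stalker2 was the family with the 4th most copies of 166 TE families, ahead of Stalker at place 21 and Stalker4 at place 24.

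Outside the stretch the Stalker copies had 53 counts in the pyrosequenced and 2336 in the Solexa ovary library, and 8916, 6579 and 45178 in the Rev, IR6 and iso1a bodies. Scaled to gene counts these are levels of 482 CPM (361 to 630), 830 CPM (797 to 865), 763 CPM (747 to 779), 683 CPM (667 to 700) and 10315 CPM (10220 to 10411). The iso1a body thus stood above the other 4 libraries, which lay closer to each other. As a share of all TE counts outside the stretch, Stalker held 13.9% and 36.5% in the pyrosequenced and Solexa ovary libraries and 5.10%, 5.09% and 8.89% in the Rev, IR6 and iso1a bodies. In such bulk samples fewer cells of a type and less RNA per cell cannot be told apart. With the gene value taken as the sum over transcripts, which enlarges the gene total, the levels were 302, 618.5, 386, 351 and 4922 CPM in the same order.

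Stalker2 carried most of these counts in every library. Its 694 copies outside the stretch held 50, 2336, 7958, 5787 and 38070 counts in that order of libraries, between 84.3% of Stalker counts in the iso1a body and 100% in Solexa. The 234 Stalker copies held 1, 0, 457, 322 and 3383, the 226 Stalker4 copies 2, 0, 501, 470 and 3725, and the 3 Stalker3T copies none in any library. Levels per annotated length showed the same order of families: Stalker2 had 2.47 CPM per kb in Rev and 2.18 in IR6, and 31.6 in the iso1a body, against 0.132, 0.113 and 2.60 for Stalker and 0.175, 0.199 and 3.47 for Stalker4. Among the 120 TE families with at least 20 copies, Stalker2 took places 3 and 2 in the pyrosequenced and Solexa libraries and places 10, 8 and 7 in the Rev, IR6 and iso1a bodies by counts per kb. In the ovary libraries its places rest on 7 and 9 copies with counts, of which 2 held 83.0% and 88.8% of Stalker counts. Over the Rev, IR6 and iso1a bodies Stalker lay between places 39 and 58 and Stalker4 between places 30 and 48. Their ovary places, from 1 and 2 pyrosequenced counts and 0 Solexa counts, are not read.

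**Figure D1:**
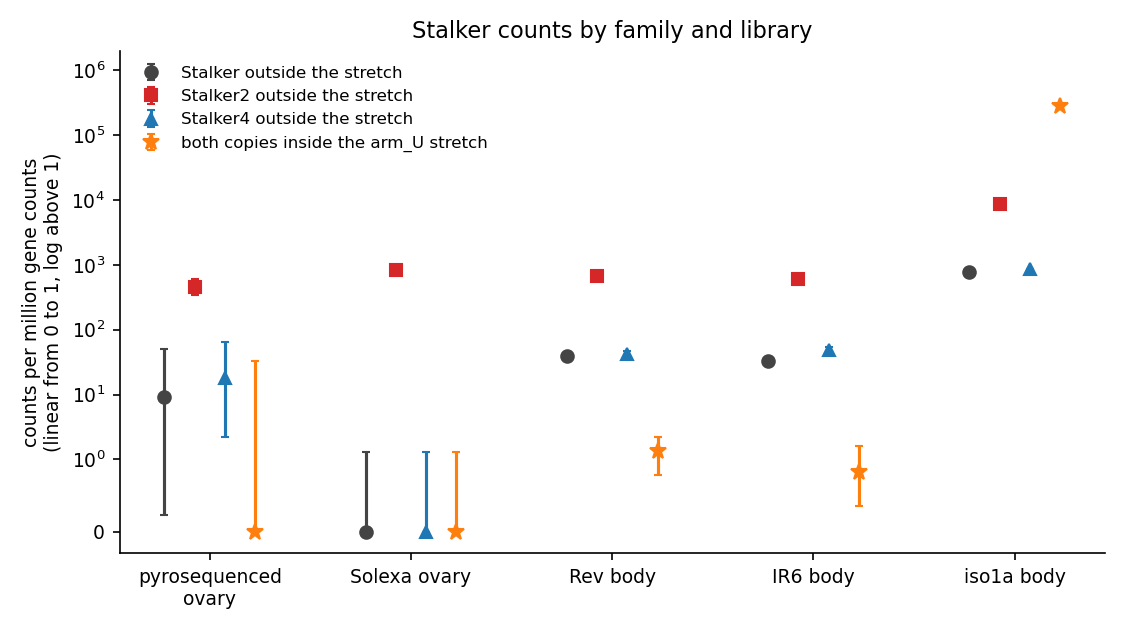
Level of Stalker, Stalker2 and Stalker4 copies outside the arm_U stretch and of both copies inside it, in CPM, for each of the 5 libraries; the axis is linear from 0 to 1 and logarithmic above, and bars are exact 95% Poisson intervals of the count. Stalker2 (squares) is the highest family outside the stretch in each library, and the copies inside it (stars) reach 283717 CPM in the iso1a body against 1.37 CPM in Rev and 0.830 CPM in IR6.

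The part of the element a copy covers went with its counts, but also with where on the genome it lies, as given below. Of the 694 Stalker2 copies outside the stretch, 579 lay wholly after base 1000 and up to base 2000 of the element, a window chosen after the counts were seen; they had a median length of 279 bp, 276 of them on the plus strand and 303 on the minus strand. These inner pieces, as they are called below, make up 168 kb of annotated sequence. They held 49, 2336, 6082, 4772 and 29667 counts in the 5 libraries. In Solexa that is 100% of Stalker counts, and in the pyrosequenced library, Rev, IR6 and the iso1a body 92.5%, 68.2%, 72.5% and 65.7%. A narrower window, after base 1200 and up to base 1700, held 64.5% in Rev and 69.5% in IR6, and 60.6% in the iso1a body. Counts fell on 202 of the 579 pieces in Rev, 193 in IR6, 238 in the iso1a body, 9 in Solexa and 6 in the pyrosequenced library.

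A second cluster of counts lay towards the 3′ end. The 165 copies of Stalker, Stalker2 and Stalker4 wholly after base 6000 and up to base 7500, a window also chosen after the counts were seen, held 3, 0, 2677, 1668 and 13691 counts in the 5 libraries. That is 30.0% of Stalker counts in Rev and 25.4% in IR6, and 30.3% in the iso1a body, from 59.2 kb. For Stalker and Stalker4 this window held most of the family's counts: 371 of 457 in Rev and 258 of 322 in IR6, and 2730 of 3383 in the iso1a body for Stalker, and 456 of 501, 429 of 470 and 3528 of 3725 for Stalker4. In the bodies, both families therefore had most counts near the 3′ end and Stalker2 had most counts on its inner pieces. In Rev, IR6 and the iso1a body these 3′ counts fell on 10, 10 and 20 of 58 Stalker copies and on 11, 13 and 17 of 60 Stalker4 copies. Of those 58 and 60 copies, 29 and 25 overlap another annotated copy, so a read can be counted under both names. All overlapping copies of the Stalker families together held 68, 67 and 2916 counts in these bodies.

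Long copies held few counts. The 67 copies spanning at least 50% of the element held 0 counts in both ovary libraries, 81 in Rev and 66 in IR6, and 780 in the iso1a body, which is 0.908%, 1.00% and 1.73% of Stalker counts from 39.5% of the annotated length; counting only copies that span 80% of the element, the share in the iso1a body was 0.930%. Per length they had 0.0214 CPM per kb in Rev and 0.0212 in IR6 against 3.11 and 2.96 for the inner pieces of Stalker2. In Solexa a count of 0 allows a share of up to 0.128% on long copies, as far as counting error alone goes. The Solexa counts came from 9 copies, and this limit does not cover which copies happened to be read. The copies with the greatest extent on the genome in each family were silent or nearly so: the 12775 bp Stalker copy on X at 21565497 to 21578271, the 10609 bp Stalker4 copy on 2LHet at 318683 to 329291 and the 372 bp Stalker3T copy on YHet at 136647 to 137018 had 0 counts in all 5 libraries. The 15283 bp Stalker2 copy on 2R at 1266504 to 1281786, which spans the element from base 1 to 7672, had 18 counts in the iso1a body and 0 in the others. Except for Stalker3T these extents exceed the element, so they are not lengths of element sequence. Of copies spanning the whole element at about its own length, Stalker4 on X at 4722083 had 70 counts in the iso1a body. Stalker2 on 3L at 14818278 and on X at 11206152 had 65 and 25 there, and Stalker on 3R at 5130306 and on X at 19691436 had 2 and 0. Stalker4 on 2R at 2217849 and on 3LHet at 2119071, which overlap other annotated copies, had 22 and 0 there. Whether reads that match several copies were kept is not stated; the part of this in the low values of long copies was not tested. Of the read names listed beside Stalker copies, which the files cut at 100 characters, 14 of 497 in Rev and 64 of 1209 in the iso1a body stood at more than 1 copy, and 0 in any library stood at copies more than 1000 bp apart.

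Copies lying wholly within the outer 500 bases of the element, where the LTRs lie, added little. The 81 copies in the first 500 bases held 1, 0, 7, 9 and 294 counts in the 5 libraries, and the 60 copies in the last 500 bases held 2, 0, 3, 10 and 25. With windows of 1000 bases, which reach into the 3′ pieces described above, the end copies held 20.9% of counts in Rev and 14.3% in IR6, and 23.8% in the iso1a body. Copies that are neither long nor within an outer 500 bases, 949 in all, held 99.0% of Stalker counts in Rev and 98.7% in IR6, and 97.6% in the iso1a body.

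**Figure D2:**
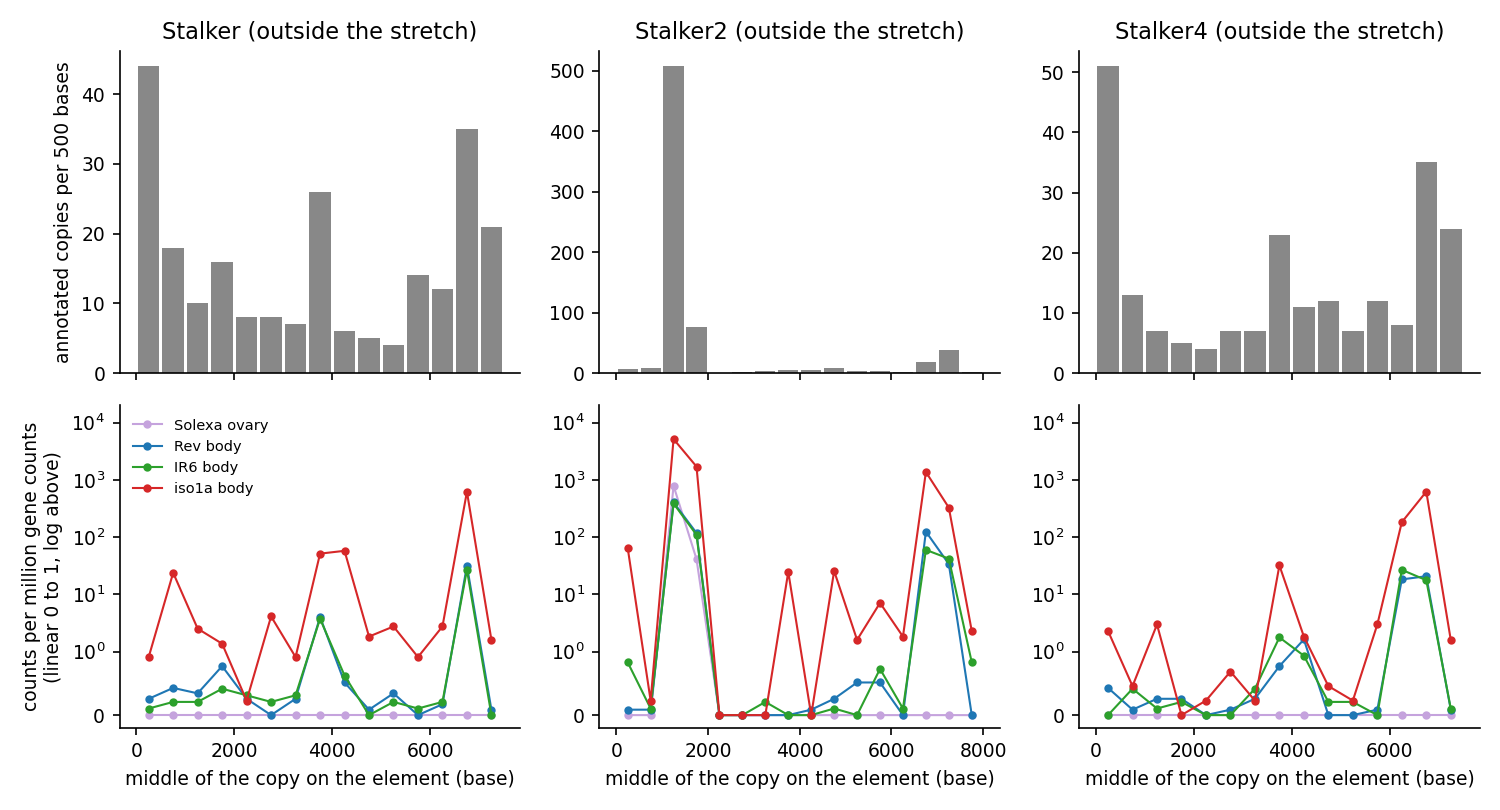
Upper panels give the number of annotated copies outside the stretch per 500 bases of the element, placed by the middle of each copy, for Stalker, Stalker2 and Stalker4; lower panels give the summed counts of those copies in CPM in the Solexa ovary and the 3 body libraries (axis linear from 0 to 1, logarithmic above). Stalker2 peaks in copies and in counts between bases 1000 and 2000, and all families have a further rise between bases 6000 and 7500 in the bodies but not in Solexa.

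Counts were concentrated on few copies. In Rev 308 of 1157 copies outside the stretch (26.6%) had a count, in IR6 293 (25.3%) and in the iso1a body 391 (33.8%), against 25.9%, 23.1% and 26.5% of all TE copies. The 10 copies with the most counts held 58.3% of Stalker counts in Rev and 54.3% in IR6, and 33.5% in the iso1a body. The smallest number of copies that held 50% of counts was 7 in Rev and 9 in IR6, and 19 in the iso1a body. Counts were found in all 3 bodies at 174 copies, in none of the 5 libraries at 619, and in the iso1a body alone at 150. The same numbers are not given over all TE copies, so nothing particular to Stalker is read from them. Rev and IR6 shared 214 copies with counts, which is 69.5% of those of Rev and 73.0% of those of IR6, against 65.8% and 73.5% over all TE copies outside the stretch.

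Placed chromosome arms held nearly all counts. The 749 copies on X, 2L, 2R, 3L, 3R and 4 had 98.3% of Stalker counts in Rev and 98.2% in IR6, and 99.3% in the iso1a body, while the 408 copies on arm_U outside the stretch and on the Het sequences had 148, 117 and 304 counts. The Het sequences are heterochromatin assigned to an arm. Per length, 2R led in Rev (3.27 CPM per kb) and IR6 (3.11) and X was the lowest placed arm (1.31 and 1.03), whereas unplaced sequence had 0.0101 and 0.00868. The family makeup of the sequences differs too: 593 of 694 Stalker2 copies were on placed arms, but 85 of 234 Stalker and 71 of 226 Stalker4 copies.

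Single Stalker2 copies led each body library. The copy with the most counts in Rev and IR6, on 2R at 11211866 to 11212118 (plus strand, element bases 1381 to 1630), had 0 pyrosequenced and 22 Solexa counts, 797 in Rev and 645 in IR6, and 1327 in the iso1a body. A copy on 3L at 18983050 to 18983406 (minus strand, bases 1254 to 1582) had 0 in both ovary libraries, 697 in Rev and 420 in IR6, and 2106 in the iso1a body, the most of any copy outside the stretch there. The 2L copy at 12456441 to 12456753 (bases 1323 to 1608) had 605, 449 and 1388 in the bodies. These copies come from the same internal piece and kept a similar level in Rev and IR6. A 3′ copy on 3L at 3088388 to 3088891 (bases 6600 to 7117) likewise had 513 counts in Rev and 380 in IR6, and 1322 in the iso1a body. Other copies were among the 5 highest of the iso1a body but not of Rev or IR6: the 2R copy at 496783 to 497055 had 45 counts in Rev and 45 in IR6, and 2063 in the iso1a body, the 3L copy at 234037 to 234345 had 100, 60 and 1538, and a Stalker4 copy on 2L at 16723140 to 16723351 (bases 6682 to 6878) had 178, 99 and 1502.

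Rev and IR6, the body libraries that share every label but the line, had Stalker levels close to each other. The ratio of Rev over IR6 outside the stretch was 0.16 on the log2 scale (0.11 to 0.21), a 1.12-fold difference, with 0.23 for Stalker (0.0176 to 0.44), 0.18 for Stalker2 (0.13 to 0.23) and −0.19 for Stalker4 (−0.37 to −0.00186). Scaling with median-ratio factors, which lowers every ratio of this pair by 0.16, brought the sum to −0.00156, so that its direction is not settled. It also rests on 1 copy: without the X copy described below the ratio was 0.0402. All TE copies outside the stretch together gave 0.16, the same value as Stalker.

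Of the 1157 copies, 47 had at least 50 counts in Rev and IR6 together and could be compared singly. At a 2-fold difference 3 were higher in Rev (6.38%, against 11.6% of the 767 TE copies compared) and 5 were lower (10.6%, against 4.82%), while 39 lay within 2-fold. Their median was 0.0920 on the log2 scale, against 0.15 over all TE copies compared. Single copies ranged from −8.81 to 5.28, and 2 copies on X stood at those ends. The counts of calls depend on the minimum: at 20 counts 8 copies were higher and 9 lower, and with no minimum 120 and 112.

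The first is a Stalker2 copy of 423 bp on X at 13640314 to 13640736 (minus strand, bases 6690 to 7119), with 728 counts in Rev and 15 in IR6, and 1287 in the iso1a body and 0 in the ovary libraries. Its log2 ratio of Rev over IR6 was 5.28 (4.59 to 6.17). It was high in Rev and in the iso1a body and low in IR6. It also accounts for the difference at the 3′ end, where pieces after base 6000 and up to base 7500 had a log2 ratio of 0.40 (0.32 to 0.49): without this copy the counts there were 1949 in Rev and 1653 in IR6, and the ratio was −0.0411. The second is a Stalker2 copy of 239 bp on X at 15741492 to 15741730 (plus strand, bases 1266 to 1501), with 0 counts in Rev and 185 in IR6, and 191 in the iso1a body. With 3 counts in place of the 0 of Rev, it was at least 74.8-fold higher in IR6. Each of these copies was thus high in 2 of the 3 body libraries and low or at 0 in the third, in opposite lines.

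The remaining calls between Rev and IR6 were small. Higher in Rev were a Stalker copy of 5921 bp on 3LHet at 1372617 to 1378537 (spanning bases 1 to 7255), with 38 counts in Rev and 14 in IR6, and 38 in the iso1a body, and a Stalker2 copy on 3L at 15135856 to 15136280, with 91, 34 and 256. Both had a log2 ratio of 1.13, which fell to 0.97 with median-ratio factors and was then below 2-fold. Lower in Rev were Stalker2 copies on 3R at 8849600 to 8849906 (24 counts in Rev, 63 in IR6, log2 ratio −1.65), on 3R at 11783170 to 11783575 (14 and 36, −1.61), on X at 15800651 to 15800964 (21 and 46, −1.39) and on 2L at 13550947 to 13551262 (22 and 44, −1.26). Next in size on the higher side, within 2-fold, were the 2L copy at 9294546 to 9294744 (82 and 45, 0.58) and the Stalker4 copy on 2L at 16723140 (178 and 99, 0.56).

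**Figure D3:**
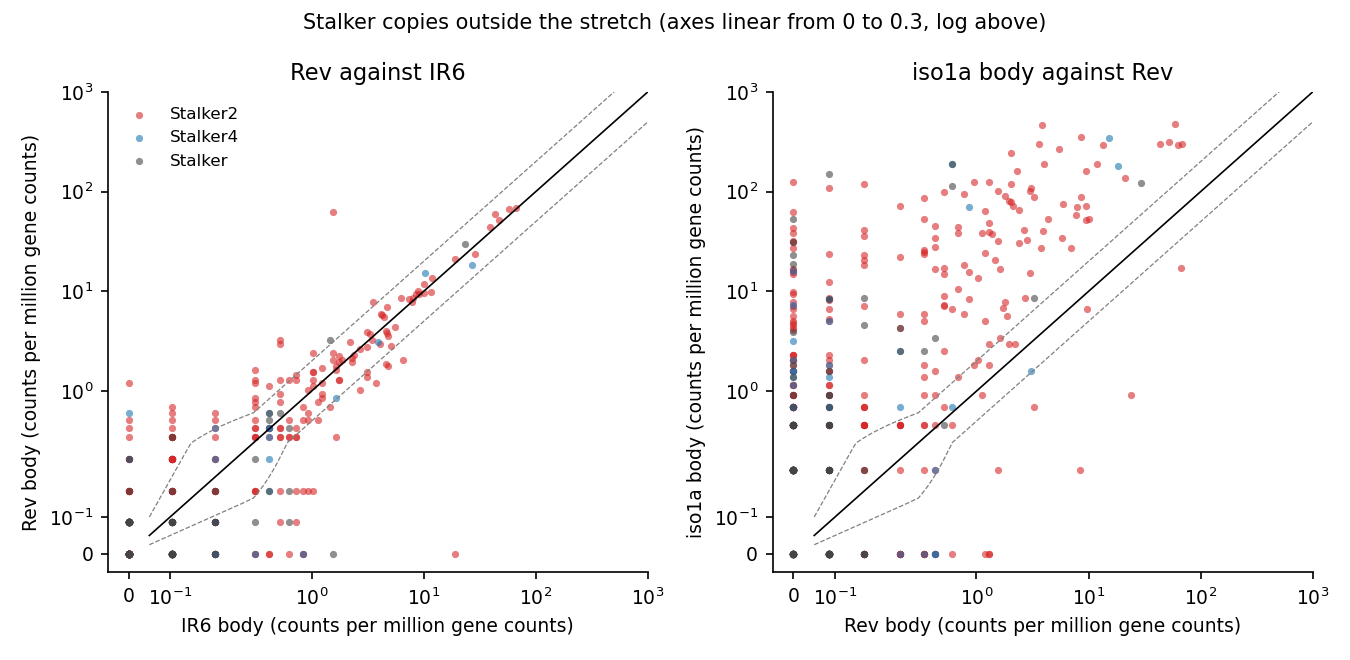
Each point is 1 Stalker copy outside the stretch with a count in some library, in CPM; left, Rev against IR6, and right, the iso1a body against Rev, with both axes linear from 0 to 0.3 and logarithmic above. The solid line marks equal levels and the dashed lines 2-fold differences; most abundant copies follow the line between Rev and IR6 except a copy with 728 counts in Rev and 15 in IR6 and a copy with 0 in Rev and 185 in IR6, while most points of the right panel lie above it.

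The iso1a body had more Stalker counts than either other body. Outside the stretch its log2 ratio was 3.76 over Rev (3.72 to 3.79) and 3.92 over IR6 (3.88 to 3.95), 13.5-fold and 15.1-fold, against 2.96 and 3.11 for all TE copies. By family the ratios over Rev and IR6 were 4.30 and 4.53 for Stalker, 3.67 and 3.85 for Stalker2 and 4.31 and 4.12 for Stalker4. At a minimum of 50 counts in each pair, 98 of 115 TE families (85.2%) were at least 2-fold higher in the iso1a body than in both others. A higher level there was thus the common case among the families compared. A family could pass that minimum through the iso1a body alone, where it had to be high, which can raise this share. TMM factors lowered the ratios of this library by 0.52 over Rev and 0.61 over IR6, to 3.23 and 3.31 for Stalker. The label normalization and the lower level of most ovary and whole-body markers in the iso1a body move with this difference, and their part in it was not tested.

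Of 113 Stalker copies with at least 50 counts in each pair, 109 were 2-fold higher in the iso1a body than in both others (96.5%, against 83% of 1143 TE copies). Of these 113, 68 had under 50 counts in Rev and IR6 together and entered only through the iso1a body, where they had to be high. With the minimum set on Rev and IR6 alone, at 50 counts in both together, 41 of 47 Stalker copies were higher in the iso1a body (87.2%, against 49.4% of 767 TE copies) and 3 were lower (6.38%, against 37%); that minimum was chosen after the values were seen. Under the minimum for each pair the same number, 3, were lower (2.65%, against 10.9% of TE copies). A Stalker2 copy on 2L at 4822607 to 4823045 (bases 6817 to 7291) had 278 counts in Rev and 275 in IR6, and 4 in the iso1a body, with log2 ratios of −4.54 and −4.80. The Stalker2 copies on 2R at 1009331 to 1009691 (778, 554 and 76 counts; −1.93 and −1.72) and on 3R at 12295523 to 12295869 (99, 72 and 1; −4.64 and −4.46) were the others. Both were also the copies with the most counts in the ovary libraries. The copy on chromosome 4 at 1213958 to 1214224, with 114, 112 and 29 counts, was the one that passed in neither direction.

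In the ovary, Stalker counts came almost wholly from 2 short Stalker2 copies. The 3R copy at 12295523 to 12295869 (plus strand, bases 1248 to 1586) had 17 pyrosequenced and 1118 Solexa counts, and the 2R copy at 1009331 to 1009691 (plus strand, bases 1271 to 1586) had 27 and 957. Together they held 83.0% of Stalker counts in the pyrosequenced library and 88.8% in Solexa. As levels, the 3R copy had 155 CPM in the pyrosequenced and 397 in the Solexa library against 8.47 in Rev and 7.47 in IR6, and 0.228 in the iso1a body, and the 2R copy had 245 and 340 against 66.6, 57.5 and 17.4. Both were highest in the ovary libraries and lowest in the iso1a body.

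Further ovary counts were few. Stalker2 copies on 3R at 14571827 to 14572098 (94 Solexa and 2 pyrosequenced counts), on 2L at 15007358 to 15007643 (83 and 0) and on 3L at 7426199 to 7426423 (37 and 0) came next. Their counts in Rev, IR6 and the iso1a body were 1, 1 and 0 for the 3R copy, 4, 6 and 26 for the 2L copy and 9, 5 and 419 for the 3L copy, so the 3R copy was seen almost only in the ovary libraries. Of 10 copies with pyrosequenced counts and 9 with Solexa counts, 3 were shared, which is 30% and 33.3% of each, against 19.0% of 147 and 25.7% of 109 over all TE copies outside the stretch. A place on 2R at 509951 to 510307 is annotated as both Stalker and Stalker4 and had 1 pyrosequenced count under each name. No Solexa count fell on a long copy, on the outer 500 bases at either end, on a piece after base 6000 and up to base 7500, or on X. Of the 1157 copies outside the stretch, 177 lie on X and 67 are long. With 9 copies holding all Solexa counts, such absences can follow from which copies happened to be read, and nothing is read from them.

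**Figure D4:**
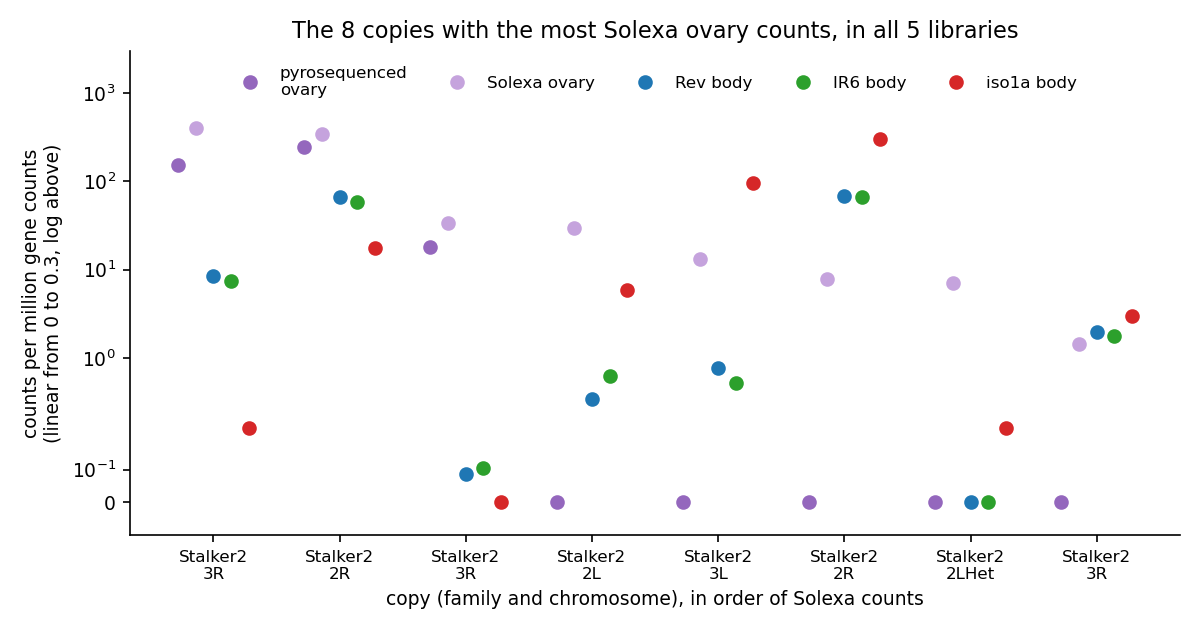
Levels in CPM (axis linear from 0 to 0.3, logarithmic above) of the 8 Stalker copies with the most Solexa counts, in order of those counts, in all 5 libraries. The 2 leftmost copies have 397 and 340 CPM in Solexa and the lowest of their 5 levels in the iso1a body, whereas the 3L copy has 95.7 CPM in the iso1a body.

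The summed ovary level was close to that of Rev and IR6, and it rested on the 3R and 2R copies with the most counts. The log2 ratio of Solexa over the pyrosequenced library was 0.77 (0.39 to 1.21), over Rev 0.12 (0.0556 to 0.19), over IR6 0.28 (0.21 to 0.35) and over the iso1a body −3.63 (−3.70 to −3.58). Without the copies on 3R at 12295523 and on 2R at 1009331 the ratios were 0.11, −2.89, −2.73 and −6.79. The remaining copies were thus lower in sum in Solexa than in each body, with the copies highest in Solexa taken out. Singly, 5 of the 9 copies with Solexa counts had a higher level there than in each body. These 9 were picked by their Solexa counts, which favours that outcome, and no share over all TE copies is given beside it. Under TMM factors, which shift Solexa over Rev by 1.04, the ratios over Rev and IR6 were 1.16 and 1.23 with those copies kept. Copy by copy at 4-fold, with at least 50 counts in the pair, 4 of 30 copies were higher in Solexa than in Rev (13.3%, against 3.51% of TE copies) and 26 lower (86.7%, against 94.3%). Against IR6, 4 of 26 were higher (15.4%, against 5.26%) and 22 lower (84.6%, against 93.1%), and against the iso1a body 4 of 110 were higher (3.64%, against 1.52%) and 106 lower (96.4%, against 96.9%). Since 4 copies had 50 Solexa counts, the other 26, 22 and 106 of these copies passed the minimum through the body library, where they had to be high, and nothing is read from the lower calls. Among the 4 higher copies, those on 3R at 14571827 and on 2L at 15007358 had 94 and 83 Solexa counts against 1 and 4 in Rev. They passed the minimum through Solexa, where they had to be high, so nothing is read from the share of higher calls either. The CAGE libraries read only 5′ ends and the body libraries all parts of a transcript, so the method differs with the tissue and their parts cannot be told apart.

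Inside the arm_U stretch nearly all Stalker counts came from the iso1a body. The Stalker2 copy at 5298514 to 5298799 (minus strand, 286 bp, bases 6969 to 7228, part of the 3′ end) had 0 counts in both ovary libraries, 16 in Rev and 8 in IR6, and 1242234 in the iso1a body. That is 283632 CPM against 1.37 and 0.830, with log2 ratios of 17.62 over Rev (16.96 to 18.47) and 18.29 over IR6 (17.40 to 19.59). This copy alone held nearly all of the 96.5% of the library's Stalker counts that fell inside the stretch. The Stalker copy at 5288185 to 5288699 (plus strand, 515 bp, bases 6269 to 6806) had 0 counts in every other library and 375 in the iso1a body. With 3 counts in place of 0 it was at least 334-fold higher there than in Rev and at least 275-fold higher than in IR6. Neither copy overlaps another, but a Dvir_Tv1 copy begins at the base after the Stalker2 copy, and whether a read across that border was counted for both is not stated. The stretch is the unbroken run of 17 annotated copies with counts in the iso1a body around the Stalker2 copy, which has the most counts there of all arm_U copies. The high iso1a body counts of the Stalker2 copy therefore follow in part from how the stretch was drawn. The next copies on either side, of Rt1c and rover, had 0 counts in all 5 libraries, which the rule required in the iso1a body.

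The other 15 TE copies of the stretch were lower in the iso1a body per length and less extreme in their ratios. Per length the Stalker2 copy had 991719 CPM per kb in the iso1a body, against 19158 to 283642 for the 15 others (median 60825). In Rev it had 4.79 CPM per kb and in IR6 2.90, below the lowest of the others, 14.8 and 14.6. Their log2 ratios of the iso1a body over Rev ran from 2.08 to 10.62 with a median of 8.55, and over IR6 from 1.66 to 10.64 with a median of 7.82. The Stalker copy was at the low end instead, with 166 CPM per kb in the iso1a body. The 2 Stalker copies therefore marked the highest and the lowest level per length among the 17 copies of the stretch in that library. The stretch was drawn around the Stalker2 copy because of its counts there, so its high place is a description only. All 15 others had counts in Rev and IR6, at least 46 and 90.

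**Figure D5:**
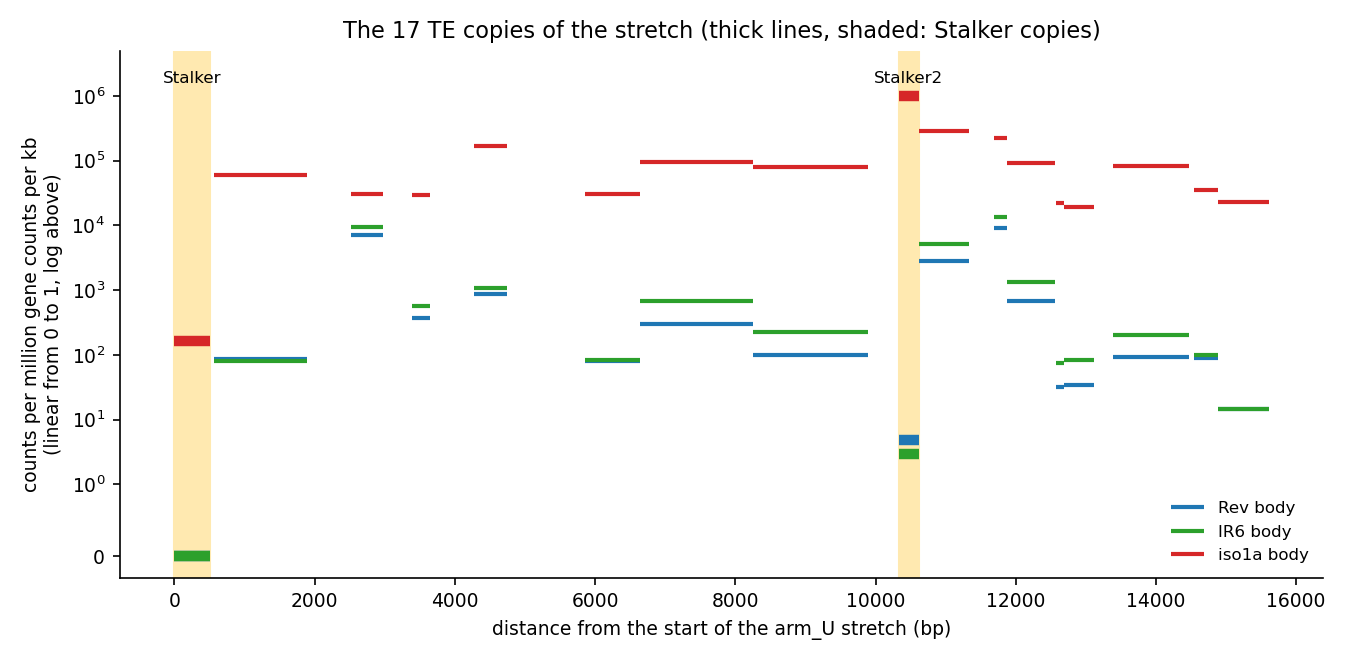
The 17 TE copies of the arm_U stretch, drawn as horizontal lines over their position (distance in bp from its start) at their level in CPM per kb in Rev, IR6 and the iso1a body; the axis is linear from 0 to 1 and logarithmic above. The Stalker and Stalker2 copies (thick lines, shaded) are the lowest and the highest of the iso1a body, at 166 and 991719 CPM per kb, and both are lower in Rev and IR6 than the 15 other copies. The stretch was drawn around the Stalker2 copy because of its counts in the iso1a body.

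Related LTR families, taken as a list of 7 that includes mdg1, blood, Quasimodo and gypsy, shared some of these features. In Rev, copies spanning at least 50% of the element held 2.60% of counts for mdg1, 1.03% for Quasimodo, 16.7% for blood, 40% for gypsy and 0.0997% to 1.40% for the other 3 families, against 0.908% for Stalker families and 8.23% for all TE copies. In the iso1a body the share was 63.2% for gypsy, from 38 counts in all, and between 0.229% and 6.68% for the other 6, against 1.73% for Stalker families and 4.24% for all TE copies. The most crowded 500 bases of the element held the middle of 73.2% of Stalker2 copies; in the list of 7 that share was 68.9% in a family not named here, 57.5% in mdg1, 52.5% in blood and 41.9% or less in the other 4. The log2 ratio of the iso1a body over Rev was 4.41 for mdg1, 4.61 for blood and 4.27 for Quasimodo beside the 3.76 of Stalker, and 0.44 for gypsy; the 3 families of the list not named here lay between 3.38 and 3.84. In Solexa the 7 families had between 0 and 187 counts, the most in mdg1, against 2336 for Stalker2, most of them at the 3R and 2R copies named above. These are side by side values with no test of a difference.

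Genes of the piRNA pathway, which acts on such elements, were compared in the bodies from a list of 25. Of 24 with enough counts, 1 was 2-fold higher in Rev than in IR6 and 0 were lower, against 4.34% and 3.47% of 10300 genes, and their median log2 ratio was 0.31 against 0.10 over all genes. In the iso1a body 7 were higher than in both other bodies and 1 was lower, against 35.2% and 19.3% of 10316 genes. The gene piwi, which encodes the nuclear PIWI protein of the ovary, had levels of 191, 135 and 461 CPM in the Rev, IR6 and iso1a bodies, from 2228, 1298 and 2020 counts. AGO3, a PIWI partner of aub, had 131, 89.0 and 254 CPM, and aub had 60.8, 38.0 and 54.8 CPM. Both piwi and AGO3 were thus highest in the iso1a body, and aub was highest in Rev.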

How the data were processed

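PolyA RNA was measured in 2 ovary and 3 whole-body libraries. Bowtie was the aligner, per the submitters' processing notes; its version, the build and the handling of reads with several matches are not given in the sources used here. Deposited values are whole-number counts of reads per annotated transcript and, in a feature file whose source column names S-MART, the number of reads overlapping each TE copy; the authors applied no scaling that the files show. No genome of the files' build was used, so no sequence or neighbouring gene is given.

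The value of a gene was its largest transcript count, and a row without a gene name (0 to 681 counts) was left out. Ratios are log2 of (count + 0.5) scaled to the gene total, with exact conditional (Clopper-Pearson) intervals; levels and shares have exact Poisson and binomial intervals. Differences were called at 2-fold, or 4-fold for ovary against body, with at least 50 counts per pair; for the iso1a body both ratios had to pass. With 1 library per group there was no test. Copies were named by a rule: those inside the stretch, the 5 top copies by counts in any library, the longest of each family and the 5 largest ratios of Rev and IR6 in each direction. The copies lower or uncalled in the iso1a body were named after their values were seen, because they were 3 and 1, and piwi, AGO3 and aub were chosen as examples. The copies spanning the whole element at about its own length were also named after their values were seen. Members, lists and windows were chosen with earlier results of these data known. Alternatives were other scalings (TMM of edgeR 4.0.16, median-ratio factors of DESeq2 1.42.0, R 4.3.3), minimum counts, pseudocount, copy sets and windows. Other steps used Python 3.11.15, numpy 2.4.6, pandas 2.3.3, scipy 1.17.1 and matplotlib 3.10.9, tested on simulated data.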

Additional observations from a re-analysis of the deposited data

How the results depend on the processing

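No paired analysis was possible because each group has 1 library; for the same reason no replicate was left out, and inside the stretch no value exists for placed arms. Repeated copies counted once, placed arms only and a pseudocount of 1 moved none of the summed values or counts beyond its interval or 1.5-fold.

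With gene values summed over transcripts the levels outside the stretch were 302, 618.5, 386, 351 and 4922 CPM in the pyrosequenced, Solexa, Rev, IR6 and iso1a body libraries, and inside it 0.692 in Rev and 135368 in the iso1a body; the ratios were 3.67 and 3.81 for the iso1a body over Rev and IR6, and 0.68, 0.82 and −2.99 for Solexa over Rev, IR6 and the iso1a body. Without the copy with the most counts the levels were 236, 433, 695, 616 and 9834 CPM outside and 0, 0 and 85.6 CPM inside in the bodies, and the ratios 3.81 (iso1a body over Rev), 0.38, −0.51, −0.35 and −3.57 (Solexa over the pyrosequenced library, Rev, IR6 and the iso1a body) and, inside the stretch, 10.97 and 10.69, where the Stalker copy is all that is left. The sign of Solexa over Rev and IR6 thus rests on single copies, as it does without the 2 leading Solexa copies (0.11, −2.89, −2.73 and −6.79, chosen after seeing the data).

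Without overlapping copies the iso1a body had 9649 CPM, with ratios of 3.67, 3.84 and −3.54 (over Rev, over IR6, Solexa over it). TMM factors gave 0.0716 for Rev over IR6, 3.23 and 3.31 for the iso1a body and 1.16, 1.23 and −2.07 for Solexa; median-ratio factors −0.00156, 3.70, 3.70, 1.13, 1.12 and −2.57; scaling to genes plus TE copies 3.62, 3.78 and −3.48. Rev over IR6 was 0.0402 without the X copy highest in Rev and 0.0815 also without that lowest in Rev, both chosen after seeing the data.

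Copies higher in Rev than IR6 numbered 1 with median-ratio factors, 8 at a minimum of 20 counts and 120 with none; lower ones 9 and 112 under those minima. With no minimum 351 copies were higher and 15 lower in the iso1a body, and with 50 counts in Rev and IR6 together 41 were higher, a minimum chosen after seeing the data that leaves fewer copies. End windows of 250 bases held 0.0112%, 0.122% and 0.0266% of counts in Rev, IR6 and the iso1a body, and windows of 1000 bases 20.9%, 14.3% and 23.8%; without overlapping copies the 500-base windows held 0.0452% in Rev and 0.0154% in IR6. Long copies held 0.701%, 0.660% and 1.30% without overlapping copies, and from 80% of the element 0.775% in IR6 and 0.930% in the iso1a body. Under the other scalings the named copies kept their 2-fold call between Rev and IR6, apart from the 3LHet and 3L copies at 1.13 with median-ratio factors. The 53 counts of the pyrosequenced library limit every statement on it.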
